A study of Homo sapiens with 6 samples.

Results

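The genes described here are the 274 expressed members of the ZNF family in RPMI-8402 cells, out of 63677 genes in the deposited table. They were chosen by symbol (ZNF followed by digits alone) and by a mean level of at least 10 CPM over all 6 libraries, where CPM is a gene's count scaled to the total of its library. The table held 524 ZNF entries, of which 411 had enough counts to be tested and 73 had no count in any library. The level itself chose the members, so it is given only as a description. ZNF461 and ZNF333, the members nearest the threshold, both had a mean of 10.2 CPM. ZNF517 at 9.89 CPM and ZNF79 at 9.88 CPM lay just outside it.

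RPMI-8402 is a human T cell acute lymphoblastic leukaemia line. All 6 samples carried Cas9, the DNA-cutting enzyme of genome editing, and the genotype label MYC_KO, and all grew in tetracycline-free serum. The 3 DMSO samples received the solvent, and the 3 doxycycline samples received the drug that switches on guide RNAs against MYC, both for 72 hours. Doxycycline was not given without guides in the samples analysed here, so an effect of the drug and of the guides cannot be told apart. The labels do not say whether the line was a clone or whether each replicate was its own culture. The p-values therefore reflect the spread among these libraries alone, and that spread may be technical.

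ZNF genes encode proteins with zinc fingers, short folds that hold a zinc ion between cysteines and histidines and that read DNA, or in some proteins RNA or other proteins. Many members also carry a KRAB domain, which recruits TRIM28 and with it a histone H3 lysine 9 methyltransferase and HP1 proteins that silence transposable elements. Most KRAB members sit in tandem gene clusters that grew by duplication, many of them on chromosome 19.

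One finger unit is printed for each of 6 members, 3 that rose and 3 that fell, to show how their base composition varies. Each runs through the 84 coding bases of a finger and the linker that joins it to its neighbour, with the linker bases in capitals, on GRCh38 from GENCODE 29. ZNF467 (chr7:149765773-149765856, minus strand), ZNF841 (chr19:52066766-52066849, minus strand) and ZNF500 (chr16:4752763-4752846, minus strand) rose. ZNF22 (chr10:45003615-45003698, plus strand), ZNF829 (chr19:36892074-36892157, minus strand) and ZNF257 (chr19:22088351-22088434, plus strand) fell. All 6 stretches are coding sequence in the last coding exon.
ZNF467: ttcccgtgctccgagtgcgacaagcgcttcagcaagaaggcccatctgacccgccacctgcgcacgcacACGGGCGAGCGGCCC
ZNF841: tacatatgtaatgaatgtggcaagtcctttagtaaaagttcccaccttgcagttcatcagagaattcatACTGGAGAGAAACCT
ZNF500: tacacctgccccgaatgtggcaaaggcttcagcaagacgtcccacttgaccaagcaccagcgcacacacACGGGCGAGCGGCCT
ZNF22: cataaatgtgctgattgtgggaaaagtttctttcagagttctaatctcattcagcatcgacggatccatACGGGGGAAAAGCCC
ZNF829: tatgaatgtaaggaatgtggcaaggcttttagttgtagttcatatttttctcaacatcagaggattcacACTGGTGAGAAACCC
ZNF257: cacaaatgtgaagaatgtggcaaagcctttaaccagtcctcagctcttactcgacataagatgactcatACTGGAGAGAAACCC
The genes were picked after their values were seen. ZNF467 has no unit with the usual linker, so a linker with arginine in place of lysine was also accepted for printing. The printed units of ZNF467 and ZNF500 both have that arginine. G and C made up 69.05% of the ZNF467 unit and 61.9% of the ZNF500 unit. They made up 38.1% of the ZNF841 and ZNF829 units and 44.0% of the ZNF22 and ZNF257 units. In the 15 linker bases, 13 were G or C in ZNF467 and 7 in ZNF841. The linker of ZNF841 encodes lysine, so part of that difference lies in the residue. ZNF841 is thus a gene that rose although its unit is as poor in G and C as that of ZNF829, which fell.

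Gene counts summed to between 23121255 and 26214598 per library. From here on CPM is scaled by TMM, edgeR's correction for library composition, unless said otherwise. MYC, the targeted gene, stood at 407 to 422 CPM with DMSO and 431 to 459 CPM with doxycycline, a log2 fold change of 0.092 (SE 0.049, edgeR adjusted p = 0.16). MYC transcript did not pass the test in either direction, and a gene-level count does not show whether the gene was cut. It was higher past the threshold with 2 other scalings (log2 fold change 0.14 with each). The T lineage markers summed to 2750.0 to 2854 CPM with DMSO and 2762 to 2903 CPM with doxycycline, with LMO2 and CD1E near 0. These ranges overlap, and CD3E and LCK were the largest parts of the sum. Single markers moved both ways. CD7 and CD5 passed the test as higher (log2 fold change 0.48 and 0.23) and CD3G as lower (-0.24). No other marker of that list passed it. B cell markers summed to 11.5 to 12.9 CPM with DMSO and 16.2 to 17.2 CPM with doxycycline with MS4A1 at 0, and myeloid markers to 1.07 to 1.27 and 2.17 to 2.21 CPM with CD33 at 0. Fibroblast and epithelial markers summed to 39.9 to 40.3 and 47.3 to 52.98 CPM with COL1A2, EPCAM and KRT18 at 0. Nearly all of that sum is COL1A1 (log2 fold change 0.31, and 0.083 with the GC content and length correction described further on). Their part in the ZNF results was not tested.

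Of the 274 members, 33 rose and 26 fell with doxycycline (edgeR quasi-likelihood test, Benjamini-Hochberg adjusted p under 0.05 over 15492 genes), and 215 did not pass the test. That is 12.04% higher and 9.49% lower. Over all tested genes 13.8% were called higher and 15.5% lower, and over the 9199 tested genes at 10 CPM or more 14.0% and 24.2%. The median log2 fold change of the members was -0.0065, beside -0.00072 over all tested genes and -0.045 over genes at 10 CPM or more. The members' quartiles lay at -0.084 and 0.093, so most changes were small. The members summed to 10982 ± 206 CPM with DMSO and 10950.3 ± 48.3 CPM with doxycycline (SD, n = 3 each). As an unscaled share of each library's counts the sum was 1.08% ± 0.034 with DMSO and 1.11% ± 0.013 with doxycycline. The direction of the family's sum thus turned with the scaling, and in both cases the libraries of the groups overlapped.

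In 47 of the 274 members every doxycycline library lay above every DMSO library, and in 39 every one lay below. Groups failed to overlap in this way in 20.7% of all tested genes on the higher side and 21.0% on the lower side. Among tested genes at 10 CPM or more these shares were 19.2% and 30.8%. The calls depended on single libraries. Without DMSO replicate 1 (DMSO 1 in short) there were 20 higher and 12 lower, without doxycycline replicate 1 there were 19 and 12, and without doxycycline replicate 3 there were 21 and 13. Without DMSO replicate 3 there were 28 higher and 16 lower. Of the 33 and 26, 11 and 7 were called in each of the 6 fits that leave out 1 library. The balance of directions also depended on scaling: with upper-quartile scaling 50 members were higher and 10 lower, 83.3% of calls higher against 55.9% with TMM, while the share among all genes moved from 47.0% to 64.4%. That scaling raised the median of all tested genes to 0.047 and that of the members to 0.041, so the sign of the members' median is not fixed.

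ZNF467, a zinc finger factor known for augmenting STAT3 activity and for directing marrow stromal cells towards fat, rose most. Its levels in replicates 1, 2 and 3 (the order used throughout) were 12.5, 12.2 and 14.8 CPM with DMSO and 22.9, 22.5 and 22.2 CPM with doxycycline. No doxycycline library came near the DMSO libraries, and the doxycycline libraries lay close together. The log2 fold change was 0.78 (SE 0.079, edgeR adjusted p = 1.19e-07), beside 0.37 for the next member. In the authors' deposited table the log2 fold change of ZNF467 is 0.77, with an adjusted p-value of 1.04e-11.

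ZNF841, a KRAB protein with 20 fingers on chromosome 19, was at 14.8, 14.3 and 13.8 CPM with DMSO and 17.9, 17.4 and 17.6 CPM with doxycycline. The groups did not overlap, and the log2 fold change was 0.30 (SE 0.074, edgeR adjusted p = 0.00315). GENCODE 29 places exons of ZNF432 on the same strand over exons of ZNF841, and ZNF432 fell, so their reads may not be fully separated. ZNF707, a KRAB gene, was at 8.65, 9.50 and 9.78 CPM with DMSO and 11.9, 11.2 and 12.9 CPM with doxycycline (log2 fold change 0.37, edgeR adjusted p = 0.00318). ZNF862, which carries a KRAB signature but no finger of the classical pattern, was at 20.03, 20.9 and 19.5 CPM with DMSO and 25.9, 24.6 and 25.5 CPM with doxycycline (log2 fold change 0.33, edgeR adjusted p = 0.000576). All 3 doxycycline libraries were above all 3 DMSO libraries in both genes, as the rule that picked them required.

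ZNF503, a repressor in limb and striatal development, was at 11.1, 11.6 and 10.7 CPM with DMSO and 13.3, 12.9 and 14.6 CPM with doxycycline, with a log2 fold change of 0.29 (edgeR adjusted p = 0.0109). ZNF575 was at 10.04, 9.79 and 9.78 CPM with DMSO and 12.1, 12.2 and 11.6 CPM with doxycycline (log2 fold change 0.28, edgeR adjusted p = 0.0142). ZNF500, which carries the SCAN domain through which such proteins pair, was at 21.7, 22.1 and 22.9 CPM with DMSO and 26.5, 27.2 and 26.6 CPM with doxycycline (log2 fold change 0.27, edgeR adjusted p = 0.00285). The groups stayed apart in all of these. ZNF580, with only 3 fingers, was at 31.7, 33.8 and 29.6 CPM with DMSO and 40.6, 37.4 and 36.2 CPM with doxycycline (log2 fold change 0.26), and its exons overlap those of ZNF581 and CCDC106 on the same strand. ZNF513, mutated in a form of retinitis pigmentosa, was at 33.6, 39.5 and 36.5 CPM with DMSO and 45.1, 40.5 and 45.7 CPM with doxycycline (log2 fold change 0.26), and ZNF219, a partner of SOX9 in cartilage, was at 14.00, 16.1 and 14.9 CPM with DMSO and 18.7, 16.96 and 18.2 CPM with doxycycline (log2 fold change 0.26). The adjusted p-values of these last 3 were 0.00361, 0.00412 and 0.0132 with edgeR. In ZNF513 the lowest doxycycline library was only just above the highest DMSO library. With 1 library left out in turn, ZNF503 did not pass the test without doxycycline 3 (0.24), ZNF513 without DMSO 1 (0.20) and ZNF219 without DMSO 1 (0.21) or doxycycline 1 (0.23), where log2 fold changes are in parentheses.

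Among the falls, ZNF22, a 5-finger protein studied in tooth development, had 106, 94.8 and 108 CPM with DMSO and 72.5, 88.8 and 76.96 CPM with doxycycline. All treated libraries stayed below the DMSO range, and doxycycline replicate 2 was nearest to it. The log2 fold change was -0.37 (SE 0.064, edgeR adjusted p = 0.000116), and the authors' deposited table gives ZNF22 a log2 fold change of -0.38. ZNF829, a KRAB gene with 9 fingers, was at 21.97, 21.7 and 23.4 CPM with DMSO and 17.1, 18.03 and 17.4 CPM with doxycycline (log2 fold change -0.35, SE 0.070, edgeR adjusted p = 0.000495). ZNF257, a KRAB gene with 11 fingers, was at 19.5, 18.3 and 21.00 CPM with DMSO and 14.7, 17.00 and 14.5 CPM with doxycycline (log2 fold change -0.35, edgeR adjusted p = 0.00192). Neither gene has an overlapping exon of another gene in GENCODE 29.

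ZNF330, a nucleolar protein without a classical finger, was at 38.6, 38.8 and 40.5 CPM with DMSO and 32.2, 31.8 and 32.3 CPM with doxycycline, with little spread within either group. Its log2 fold change was -0.29 (edgeR adjusted p = 0.000575). ZNF480 was at 77.4, 70.2 and 82.7 CPM with DMSO and 64.3, 63.2 and 63.1 CPM with doxycycline (log2 fold change -0.27, edgeR adjusted p = 0.000922). ZNF639 was at 79.01, 70.03 and 71.1 CPM with DMSO and 58.03, 62.8 and 62.8 CPM with doxycycline (log2 fold change -0.26, edgeR adjusted p = 0.00129). ZNF561, ZNF138, ZNF583 and ZNF420, all KRAB genes, completed the 10 with log2 fold changes of -0.26, -0.26, -0.25 and -0.25 and edgeR adjusted p-values of 0.0134, 0.00609, 0.0261 and 0.0316. ZNF561 did not pass the test without DMSO 3 (-0.20) or doxycycline 1 (-0.21), nor ZNF138 without DMSO 1 (-0.17). ZNF583 did not without DMSO 1 (-0.22), doxycycline 1 (-0.22) or doxycycline 3 (-0.25), and ZNF420 did not without DMSO 2 (-0.24), DMSO 3 (-0.22), doxycycline 1 (-0.23) or doxycycline 3 (-0.23).

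**Figure D1:**
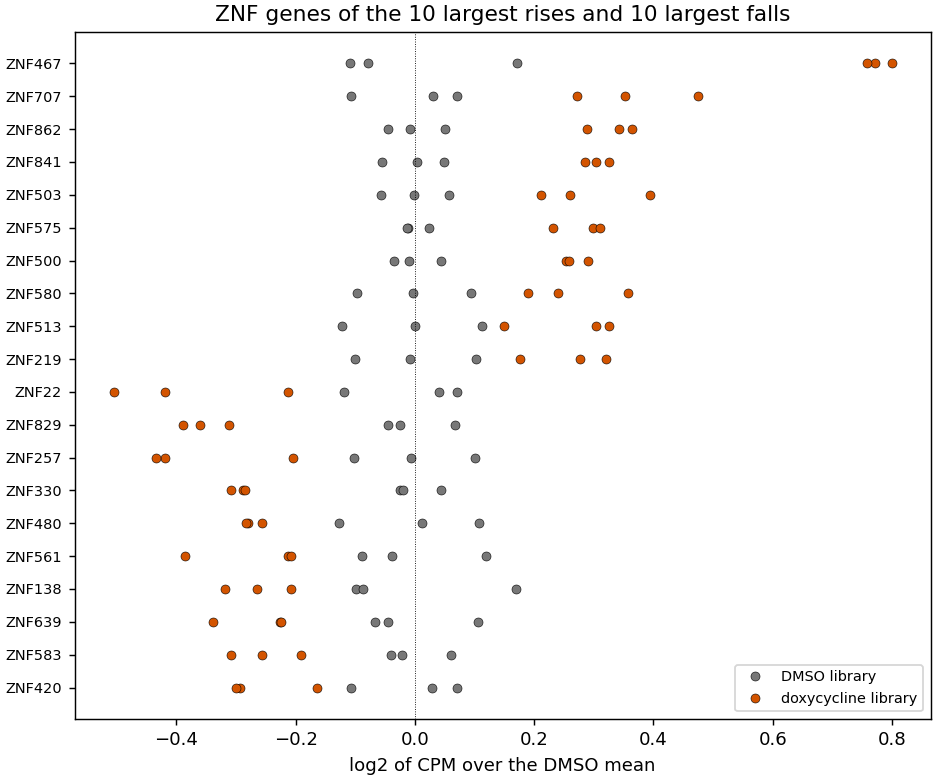
Level of the 10 members that rose most and the 10 that fell most, in each library, as the log2 of CPM over the gene's DMSO mean (x axis, 1 point per library, gray for DMSO and orange for doxycycline). ZNF467 stands apart at 0.78, and in all 20 genes the points of the groups do not overlap, as the rule that picked them requires.

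Direction followed the base composition of the transcripts. The median GC content of the longest GENCODE 29 transcript was 43.5% over the members and 48.5% over all tested genes. It was 59.8% in the members that rose and 40.1% in those that fell, and at the third position of codons the medians were 72.7% and 37.9%. Across the 272 members with a value, the log2 fold change and GC content had a Pearson r of 0.57, and across the 9098 genes at 10 CPM or more r was 0.50. These are correlations across genes, which are not independent replicates and share the same 6 libraries.

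All tested genes were split into 5 equal bins of GC content, with borders at 41.1%, 45.9%, 51.6% and 57.9%. From the lowest bin to the highest, 1 of 90, 3 of 67, 4 of 46, 2 of 26 and 23 of 43 members rose. Among all genes at 10 CPM or more 1.78%, 4.06%, 8.84%, 19.7% and 37.2% were called higher in those bins. The members that fell numbered 14, 9, 3, 0 and 0, where 42.1%, 36.1%, 22.1%, 12.8% and 5.04% of all genes at that level were called lower. The 23 were thus 53.5% of the members in the highest bin, and the 14 were 15.6% of those in the lowest. The members' medians from the lowest bin to the highest were -0.076, -0.015, -0.0024, 0.047 and 0.16, and those of other genes at 10 CPM or more were -0.14, -0.12, -0.053, 0.016 and 0.10. In each bin the median of the members was thus above that of the other genes. The difference was described, not tested, and genes of the same bin can differ in other ways.

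**Figure D2:**
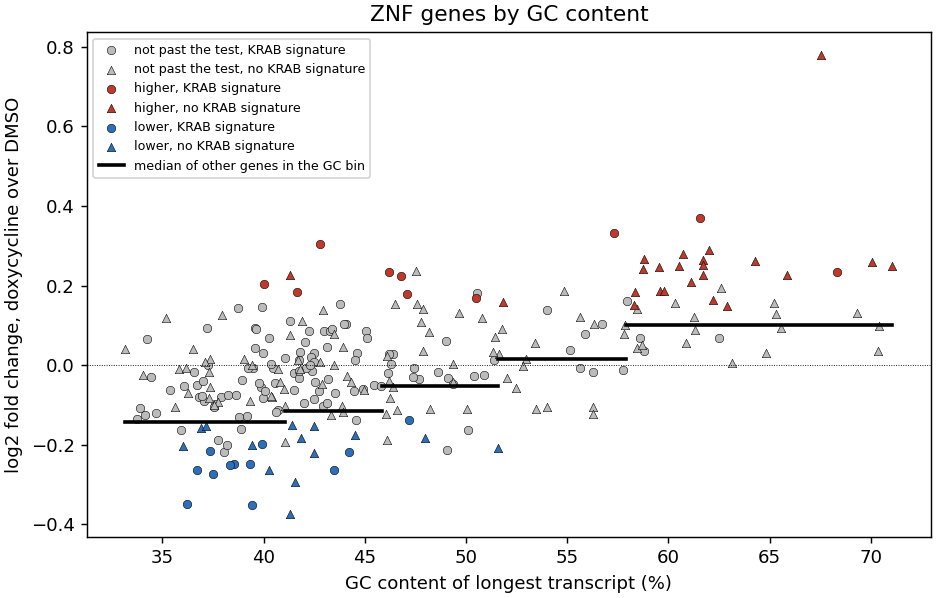
Log2 fold change (y axis, doxycycline over DMSO) against the GC content of the longest transcript (x axis, percent) for the members with a coding sequence, circles with a KRAB signature and triangles without, red where higher and blue where lower past the test. Black bars are medians of other genes at 10 CPM or more in each bin, from -0.14 to 0.10, and the red points gather at high GC content.

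**Figure D3:**
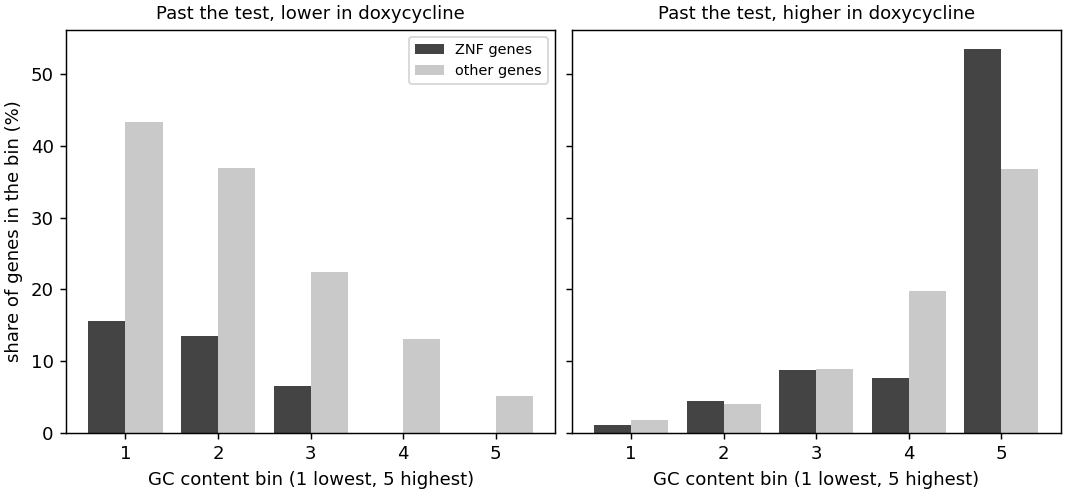
Share of genes (y axis, percent) that passed the test as lower (left) or higher (right) in each GC content bin (x axis), dark for ZNF genes and light for other genes at 10 CPM or more. In the lowest bin 15.6% of ZNF genes and 43.4% of other genes were lower, and in the highest bin 53.5% and 36.8% were higher.

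The same trend was present between libraries of 1 group. For each library the deviation of each member from its mean over the 6 libraries was set against GC content. The r over members was -0.63 in DMSO replicate 1 and -0.64 in DMSO replicate 3, but 0.17 in DMSO replicate 2. It was 0.69 in doxycycline replicate 1, and 0.21 and 0.29 in doxycycline replicates 2 and 3. Members of the highest bin deviated by a median of -0.13, -0.024 and -0.12 on the log2 scale in the DMSO libraries and by 0.13, 0.054 and 0.063 in the doxycycline libraries. DMSO replicate 2 was thus nearer to doxycycline replicates 2 and 3 in its trend than to the other DMSO libraries. Leaving out these 2 libraries, DMSO 2 and doxycycline 1, gave 27 members higher and 22 lower. Whether the trend arose in the cells or in the libraries was not tested.

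**Figure D4:**
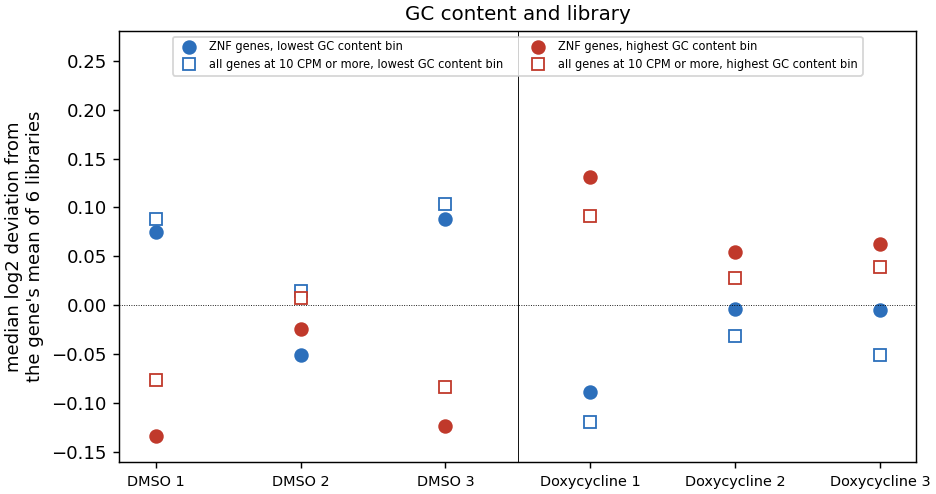
Median log2 deviation from each gene's mean of 6 libraries (y axis) in each library (x axis), for the lowest (blue) and highest (red) GC content bin, filled circles for ZNF genes and open squares for all genes at 10 CPM or more. Red and blue circles are far apart in DMSO 1, DMSO 3 and Doxycycline 1, and in DMSO 2 they lie at -0.024 and -0.051.

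A fit that removes each library's smooth trend with GC content and transcript length gave other calls. It also removes any true change that follows these properties. In it 28 of 272 members were higher and 14 lower, with a median log2 fold change of 0.033, and r with GC content was -0.14. Among all tested genes 10.8% were higher and 11.4% lower in that fit, and among those at 10 CPM or more 9.46% and 18.0%. Of the 33 members called higher without the correction 10 were also called higher with it, and of the 26 called lower 7 were. Another 18 were called higher and 7 lower with the correction alone. No member was called in opposite directions. ZNF2 and ZNF595 had no GC value.

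The 10 higher in both fits were ZNF160, ZNF467, ZNF580, ZNF581, ZNF594, ZNF701, ZNF737, ZNF746, ZNF789 and ZNF841. ZNF467 kept a corrected log2 fold change of 0.60 (edgeR adjusted p = 3.09e-05). ZNF841, at a GC content of 42.8%, had 0.41 (0.00026 by edgeR), more than its uncorrected 0.30. ZNF737 and ZNF160, KRAB genes of low GC content, moved from 0.20 and 0.18 to 0.36 and 0.28. ZNF746, known as PARIS, a Parkin substrate that represses PGC-1 alpha, had 0.17 and 0.14, the latter just past the threshold (edgeR adjusted p = 0.0496). Uncorrected calls were lost for ZNF160 without DMSO 2 (0.15), doxycycline 1 (0.18) or doxycycline 3 (0.17), for ZNF737 without DMSO 1 (0.21), DMSO 2 (0.16), doxycycline 2 (0.18) or doxycycline 3 (0.17) and for ZNF746 without DMSO 1 (0.15), DMSO 3 (0.17), doxycycline 1 (0.13) or doxycycline 3 (0.16). They were also lost for ZNF581 without DMSO 1 (0.16), DMSO 3 (0.17), doxycycline 1 (0.17) or doxycycline 3 (0.19), for ZNF594 without DMSO 3 (0.19), doxycycline 1 (0.21) or doxycycline 3 (0.18) and for ZNF701 without doxycycline 2 (0.21). ZNF500, ZNF219 and ZNF503, with GC contents of 58.8%, 70.1% and 62.03%, were among the 23 that did not pass with the correction, at 0.093, 0.038 and 0.14. So were ZNF707, ZNF862, ZNF575 and ZNF513, at corrected log2 fold changes of 0.23, 0.15, 0.19 and 0.14.

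The 7 lower in both fits were ZNF207, ZNF22, ZNF507, ZNF576, ZNF639, ZNF664 and ZNF829. Corrected log2 fold changes were -0.21 for ZNF22, -0.24 for ZNF829 and -0.18 for ZNF639 (edgeR adjusted p = 0.00911, 0.00857 and 0.00844). The uncorrected call of ZNF507 was lost without DMSO 1 (-0.15) or doxycycline 1 (-0.15), and that of ZNF576 without DMSO 1 (-0.20), doxycycline 1 (-0.21) or doxycycline 3 (-0.16). ZNF257 and ZNF330 did not pass with the correction, at -0.18 and -0.095. Nor did ZNF480, ZNF561, ZNF138, ZNF583 and ZNF420, at -0.13, -0.19, -0.063, -0.12 and -0.092. Over 20 alternative fits, ZNF467 and ZNF841 were called higher and ZNF664 and ZNF829 lower in every one.

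**Figure D5:**
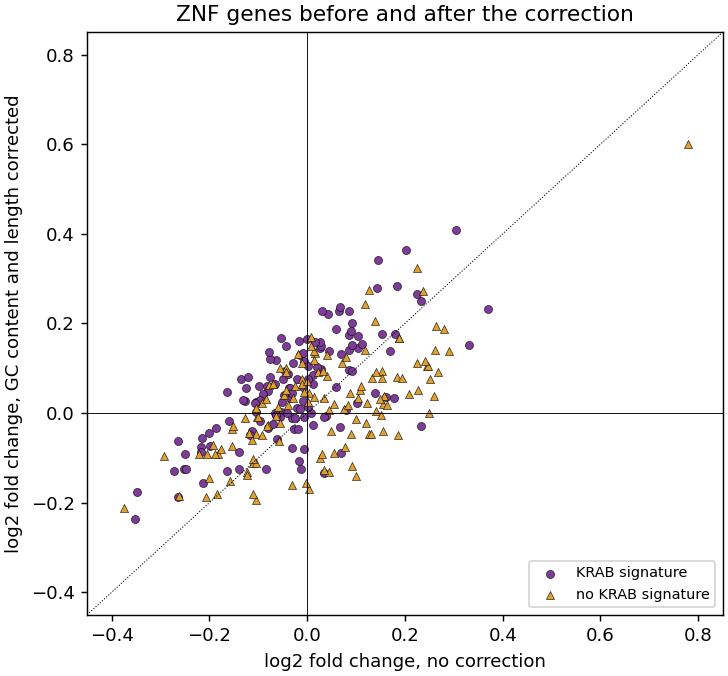
Log2 fold change without (x axis) and with (y axis) the GC content and length correction, 1 point per member with a coding sequence, purple circles with a KRAB signature and orange triangles without. Most KRAB points lie above the dotted line of equal values, and ZNF467 moves from 0.78 to 0.60.

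A KRAB signature, a short residue pattern of the domain's A box, was found in the coding sequence of 137 members and not in 133 others, while 4 had no matched coding sequence. Of KRAB members 10 rose and 12 fell, with a median of -0.020, and of the rest 23 rose and 14 fell, with a median of 0.022. Their median GC contents were 42.1% and 47.9%. With the correction 18 KRAB members were higher and 1 lower (median 0.046), and 10 and 13 of the rest (median 0.022). The 1 KRAB member lower was ZNF829. The shares among all genes at 10 CPM or more were 14.0% higher and 24.2% lower without the correction, and 9.46% and 18.0% with it. Within the lowest bin of GC content the uncorrected medians were -0.077 with the signature and -0.060 without, and 9 of 58 and 5 of 31 fell. The corrected medians in that bin were nearly equal, at 0.064 and 0.062. There 11 of the 58 were higher and 1 lower, and 3 of the 31 were higher and 3 lower. Among all genes at 10 CPM or more in that bin 8.11% were higher and 13.7% lower with the correction. Corrected values still had an r of -0.14 with GC content over members, beside -0.025 over genes at 10 CPM or more. In the highest bin 2 of 6 KRAB members and 21 of 37 others rose. The 2 kinds of members were thus spread differently over GC content, and no test of the difference between them was made.

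Members carried a median of 10 fingers, with a range from 0 to 33. Of the 49 members with 1 to 5 fingers 5 rose and 8 fell, and of the 51 with 15 or more 5 rose and 3 fell. With the correction those counts were 3 and 7 in the first set and 9 and 2 in the second. The 127 members on chromosome 19 had 10 higher and 13 lower, and the 145 placed on other chromosomes 23 and 13. With the correction 15 were higher and 4 lower on chromosome 19 (11.8% and 3.15%), and 13 and 10 elsewhere (8.97% and 6.90%). Among all genes at 10 CPM or more 14.0% were higher and 24.2% lower without the correction, and 9.46% and 18.0% with it. The median GC content was 42.3% for members on chromosome 19 and 46.8% for those elsewhere.

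Runs of neighbouring ZNF genes were described after the values were seen. Only some of the runs with at least 5 members are given, and several of the others held few calls or none. Between ZNF579 and ZNF581 on chromosome 19, 4 of 5 members rose (ZNF579, ZNF865, ZNF580 and ZNF581), none of them with a KRAB signature, at a median GC content of 64.8%. With the correction 2 of the 5 were higher. Without the correction, the background for each run is 14.0% higher and 24.2% lower among genes at 10 CPM or more. In the highest GC content bin it is 37.2% higher. With the correction the shares are 9.46% and 18.0%, with 11.4% higher in the highest bin and 13.7% lower in the lowest. The call of ZNF579 was lost without DMSO 1 (0.15) or doxycycline 2 (0.16), and ZNF581 lost its call as given above. ZNF865 stood at 57.8, 62.4 and 61.3 CPM with DMSO and 74.01, 72.5 and 69.3 CPM with doxycycline (log2 fold change 0.25, edgeR adjusted p = 0.00116), and at -0.00032 with the correction. Between ZNF565 and ZNF420 on the same chromosome 3 of 8 members fell (ZNF146, ZNF829 and ZNF420), at a median of 38.4%, beside 42.1% lower among all genes at 10 CPM or more in the lowest bin. With the correction 1 of the 8 was lower. The call of ZNF146 was lost without DMSO 1 (-0.14), doxycycline 1 (-0.14) or doxycycline 3 (-0.15). The longest run, from ZNF101 to ZNF254, held 25 members, 22 of them KRAB, of which ZNF737 rose and ZNF708 and ZNF257 fell. The call of ZNF708 was lost without DMSO 1 (-0.19), DMSO 3 (-0.19) or doxycycline 1 (-0.12). With the correction 5 of those 25 were higher and none lower. From ZNF577 to ZNF677, also on chromosome 19, 3 of 18 members rose and 3 fell. With the correction 6 of those 18 were higher and none lower. From ZNF264 to ZNF8 on that chromosome 1 of 22 members fell and none rose, and none was called with the correction. On chromosome 7, 3 of 9 members between ZNF786 and ZNF862 rose (ZNF746, ZNF467 and ZNF862), and with the correction 2 were higher and 1 lower.

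Per kilobase of transcript, the members ranged from 0.70 to 58.1 CPM. ZNF664 was highest, at 326, 315 and 305 CPM with DMSO and 279, 279.6 and 274 CPM with doxycycline in CPM not divided by length, with a log2 fold change of -0.18 (SE 0.048, edgeR adjusted p = 0.00506), and it overlaps RFLNA on its strand and CCDC92 on the other. ZNF362, a paralog of ZNF384, came next per kilobase and was at 139, 141 and 131 CPM with DMSO and 173, 145 and 149.6 CPM with doxycycline (log2 fold change 0.18, edgeR adjusted p = 0.018). ZNF672 was at 122, 131 and 119.6 CPM with DMSO and 149, 133 and 136 CPM with doxycycline (log2 fold change 0.16, edgeR adjusted p = 0.0251), and corrected it was at 0.017. Neither passed the test with the correction. ZNF362 also did not without DMSO 3 (0.15) or doxycycline 1 (0.10), nor ZNF672 without DMSO 1 (0.15), DMSO 3 (0.13) or doxycycline 1 (0.11). The lowest 3 per kilobase, ZNF26, ZNF81 and ZNF268, had log2 fold changes of 0.075, -0.015 and 0.034 and did not pass the test.

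The role lists are described by their counts. They are to be read against the 14.0% higher and 24.2% lower among all tested genes at 10 CPM or more. Counts with the correction are to be read against 9.46% higher and 18.0% lower. The ribosome and translation list had 5 members, of which ZNF330 fell and none rose. ZNF598, the ubiquitin ligase that marks collided ribosomes, was at 103, 118 and 99.8 CPM with DMSO and 114, 115 and 113 CPM with doxycycline (log2 fold change 0.093, edgeR adjusted p = 0.222, groups overlapping). ZNF259, also called ZPR1, had -0.12 and ZNF706 -0.077, neither past the test. ZNF598 turned to -0.12 and ZNF706 to 0.062 with the correction, also not past it. ZNF598 passed as higher without DMSO 2 (0.17) and as lower with the correction and without DMSO 3 (-0.15), so its direction is not fixed. ZNF259 passed as lower without DMSO 3 (-0.17).

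The list for spindle assembly, splicing and other RNA roles had 6 members, of which 2 fell and none rose. Whether each of them has such a role, ZNF131 among them, was not checked. ZNF207, known as BuGZ, which loads BUB3 on kinetochores, was at 469, 434 and 447 CPM with DMSO and 414, 417 and 379 CPM with doxycycline. Every doxycycline library was below every DMSO library (log2 fold change -0.16, SE 0.052, edgeR adjusted p = 0.0227), and the corrected value was -0.15. It did not pass the test without DMSO 1 (-0.13) or doxycycline 3 (-0.12). ZNF131 was at 72.3, 70.1 and 72.05 CPM with DMSO and 63.3, 65.1 and 64.4 CPM with doxycycline (log2 fold change -0.15, edgeR adjusted p = 0.0263) and did not pass the test without DMSO 1 (-0.15), DMSO 3 (-0.15), doxycycline 1 (-0.14), doxycycline 2 (-0.16) or doxycycline 3 (-0.16). ZNF326, a subunit of the DBIRD complex that links elongation to splicing, had -0.0066, and ZNF318 0.083.

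Of 26 listed transcription and chromatin regulators 7 rose (26.9%, beside the background of 14.0%) and 3 fell (11.5%, beside 24.2%), with a median of 0.067 and a median GC content of 49.2%. ZNF335, a subunit of histone H3 lysine 4 methyltransferase complexes, was at 94.2, 89.8 and 89.4 CPM with DMSO and 111, 99.3 and 106 CPM with doxycycline (log2 fold change 0.21, edgeR adjusted p = 0.00427). ZNF592, which works with ZNF687 and ZMYND8, was at 141, 139 and 143 CPM with DMSO and 163, 155 and 154 CPM with doxycycline (log2 fold change 0.16, edgeR adjusted p = 0.0151), and ZNF687 also rose (0.15, edgeR adjusted p = 0.0223). The others that rose were ZNF219, ZNF362, ZNF746 and ZNF768. ZNF746 carries the KRAB signature although it stands in this list. The call of ZNF592 was lost without doxycycline 1 (0.13), that of ZNF687 without DMSO 1 (0.15), DMSO 3 (0.13), doxycycline 1 (0.14), doxycycline 2 (0.16) or doxycycline 3 (0.15) and that of ZNF768 without DMSO 1 (0.13), DMSO 3 (0.10), doxycycline 1 (0.14), doxycycline 2 (0.16) or doxycycline 3 (0.14). ZNF143, an activator of small nuclear RNA genes that also binds at chromatin loop anchors, fell (-0.22, edgeR adjusted p = 0.0278), as did ZNF281, which binds GC-rich promoters (-0.18, edgeR adjusted p = 0.0182), and ZNF24. The call of ZNF143 was lost without DMSO 1 (-0.18), DMSO 2 (-0.19), doxycycline 1 (-0.22), doxycycline 2 (-0.21) or doxycycline 3 (-0.23), and that of ZNF281 without DMSO 3 (-0.13), doxycycline 1 (-0.14) or doxycycline 3 (-0.18). With the correction the list had 3 higher, ZNF746, ZNF217 and ZNF711, and 2 lower, ZNF740 and ZNF395. ZNF335 was then at 0.042 and ZNF281 at -0.091.

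Of 17 SCAN domain members 3 rose and 1 fell. ZNF500 is described above. ZNF445, which keeps imprinted loci methylated, was at 76.8, 71.02 and 78.2 CPM with DMSO and 83.01, 83.8 and 88.96 CPM with doxycycline (log2 fold change 0.18, edgeR adjusted p = 0.0142). ZNF446 was at 12.8, 13.6 and 13.4 CPM with DMSO and 16.4, 16.05 and 14.6 CPM with doxycycline (log2 fold change 0.24, edgeR adjusted p = 0.0237), and it shares exons with ZNF324 on its strand. ZNF24, a repressor of VEGF, was at 108, 103 and 113 CPM with DMSO and 90.9, 102 and 98.7 CPM with doxycycline (log2 fold change -0.15, edgeR adjusted p = 0.0339). ZNF445 did not pass the test without DMSO 2 (0.14) or doxycycline 3 (0.15), ZNF446 did not without DMSO 1 (0.21), doxycycline 1 (0.21) or doxycycline 2 (0.22), and ZNF24 did not without DMSO 1 (-0.15), DMSO 3 (-0.12), doxycycline 1 (-0.11) or doxycycline 3 (-0.17). None of these 4 calls held with the correction, where ZNF397 was higher and ZNF263 lower.

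The list of KRAB genes tied to transposable elements had 9 members, and whether each represses such elements was not checked. Of these 9 none passed the test, and the median was -0.031. ZNF93, which silences LINE-1 elements, was at 112, 106 and 104 CPM with DMSO and 114, 114 and 109.9 CPM with doxycycline (log2 fold change 0.068, edgeR adjusted p = 0.326), with groups that overlapped. ZNF429 was at 12.6, 9.38 and 10.96 CPM with DMSO and 11.1, 13.00 and 12.4 CPM with doxycycline (0.15, 0.281). ZNF10, the source of the KRAB domain used in CRISPR interference, was at 9.96, 10.00 and 11.4 CPM with DMSO and 11.01, 12.3 and 11.3 CPM with doxycycline (0.14, 0.243). With the correction these 3 were higher, at 0.24, 0.34 and 0.28 (edgeR adjusted p = 0.000467, 0.012 and 0.0172), and 8 of the 9 were above 0. ZNF680 and ZNF430 went from -0.14 and -0.099 to 0.076 and 0.061, past the test in neither fit. ZNF91 had -0.039.

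The co-repressor list held 30 genes that are not members. It took in the machinery that KRAB proteins recruit and other chromatin factors that they may not recruit. Of the 30 genes 1 rose and 6 fell. The 3.33% higher and 20% lower are both below the 14.0% and 24.2% among all genes at 10 CPM or more. TRIM28 itself was at 1199, 1257 and 1188 CPM with DMSO and 1136, 1139 and 1134 CPM with doxycycline (log2 fold change -0.096, edgeR adjusted p = 0.151), and with the correction it passed the test as lower (-0.26, edgeR adjusted p = 0.000136). CBX3, an HP1 protein, was at 218, 268 and 247 CPM with DMSO and 177, 197 and 190.2 CPM with doxycycline and fell (log2 fold change -0.38, edgeR adjusted p = 5.20e-05). SUV39H2, a histone H3 lysine 9 methyltransferase, and the deacetylase HDAC2 had -0.33 and -0.24. RBBP4 and RBBP7, histone chaperones, and the remodeller SMARCAD1 had -0.13, -0.15 and -0.16. ATF7IP, the partner of SETDB1, rose, with a log2 fold change of 0.22. RBBP4 did not pass the test without DMSO 1 (-0.13), DMSO 2 (-0.12), doxycycline 1 (-0.14), doxycycline 2 (-0.13) or doxycycline 3 (-0.14). RBBP7 did not without DMSO 2 (-0.13), doxycycline 1 (-0.13) or doxycycline 3 (-0.15), nor SMARCAD1 without DMSO 1 (-0.14), DMSO 3 (-0.12), doxycycline 1 (-0.14) or doxycycline 3 (-0.17). Of these 7 calls, those of CBX3, SUV39H2, HDAC2 and ATF7IP were also made with the correction. In that fit 3 of 29 genes were higher (10.3%) and 6 lower (20.7%), beside 9.46% and 18.0% of genes at 10 CPM or more.

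RefSeq promoters on GRCh38.p14, from 250 bases before to 50 after a gene start, matched 243 members with 312 promoters. The MYC-type E-box CACGTG, which reads the same on both strands, stood in 16 of them (5.13%), beside 7.26% of all 35116 promoters in the table. It was in 1 of 38 promoters of members that rose, 3 of 33 of those that fell and 12 of 241 of the rest. The E-box and its flanks are printed for ZNF789, which rose, and ZNF814, which fell, with the E-box in capitals (chr7:99472678-99472737, plus strand and chr19:57889050-57889109, minus strand).
ZNF789: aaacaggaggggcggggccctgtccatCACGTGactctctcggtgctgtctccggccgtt
ZNF814: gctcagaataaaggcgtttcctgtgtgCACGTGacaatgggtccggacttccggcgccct
ZNF789 had 11.98, 12.2 and 11.7 CPM with DMSO and 13.7, 13.2 and 14.9 CPM with doxycycline (log2 fold change 0.22, edgeR adjusted p = 0.0405). ZNF814 had 61.3, 66.8 and 66.4 CPM with DMSO and 59.2, 58.7 and 54.1 CPM with doxycycline (log2 fold change -0.18, edgeR adjusted p = 0.0212). The call of ZNF789 was lost without DMSO 1 (0.22), DMSO 2 (0.24), DMSO 3 (0.21), doxycycline 1 (0.24) or doxycycline 3 (0.17), and that of ZNF814 without DMSO 2 (-0.16), DMSO 3 (-0.16) or doxycycline 3 (-0.14). A match is a description of the letters and shows no binding.

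At an adjusted p-value under 0.05 the authors' deposited table has 19 members higher and 19 lower, where 9.79% and 15.6% of all genes with a value were. All 38 had the same call in edgeR. Exons of 68 members overlap another gene on the same strand and those of 93 overlap one on the other strand in GENCODE 29, and 35 of the 59 called members have either kind. No source used here gives the strand setting of the counting, so reads of such neighbours may not be separated.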

How the data were processed

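Total RNA of 6 RPMI-8402 samples was sequenced as strand-specific paired-end libraries, per the labels' protocols. The authors deposited raw gene counts without normalization, and a table of their DESeq2 test that holds a normalized signal averaged over samples, log2 fold changes, Wald scores and p-values. Per the submitters' processing notes the tools were STAR 2.5.2a, featureCounts and DESeq2 1.12.4 and the build hg19. Their annotation is not given in the sources used.

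The groups were compared with edgeR 4.0.16 (R 4.3.3): filterByExpr kept 15492 genes with at least 99.88% of each library's counts, scaling was TMM, treatment was the sole term, and p-values were Benjamini-Hochberg adjusted over all tested genes. SE is the size of the log2 fold change over the square root of F. CPM values in the text, also those per kilobase, are TMM scaled. The member threshold and the level of 10 CPM for other genes use library totals alone. Precision is limited by 3 libraries a group. GC content, length, fingers, linkers and the KRAB signature came from the longest GENCODE 29 transcript or coding sequence by gene identifier (272 members). The correction enters, per library, splines (5 degrees of freedom) of GC content and log2 length as offsets.

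Same-numbered libraries deviated with correlations of -0.058, -0.23 and 0.086, so numbers were not taken to pair samples. Named are the 10 largest rises and falls that passed the test with groups apart, the 3 highest and 3 lowest members per kilobase, those at the threshold, up to 4 of smallest p in each role list, up to 6 called co-repressor genes, and MYC. Other genes named were chosen after their values were seen. The members and lists were chosen with earlier results of these data known. Scripts were tested on simulated data. Alternatives were other scalings, DESeq2 1.42.0, no filter, a replicate block, the correction, other level thresholds and libraries left out.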

Additional observations from a re-analysis of the deposited data

How the results depend on the processing

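With 1 library left out in turn, 19 to 36 members were called higher and 12 to 30 lower, with medians from -0.032 to 0.0077. Leaving out libraries with the GC content and length correction as well, an alternative added after seeing the data, took the ranges to 13 to 36 and 8 to 30, and the median to 0.041. Lower calls numbered 14 with the correction, 10 with library size alone and 10 with upper-quartile scaling, where 50 were higher. The replicate block, which added the number as a term although the numbers do not pair the samples, gave 31 higher and 22 lower, and 12 lower with the correction. DMSO 2 correlated best with doxycycline 1 (0.32), not with its own number. Medians were 0.033 with the correction, 0.032 with block and correction, 0.037 with library size alone and 0.041 with upper-quartile scaling. The members' counts with DESeq2, no filter, level thresholds of 5 and 20 CPM, and DMSO 2 and doxycycline 1 both left out (27 and 22, added after seeing the data) stayed within 1.5 times. The targeted gene MYC passed as higher with library size alone (0.14, edgeR adjusted p = 0.0281) and upper-quartile scaling (0.14, 0.0357), in a range from 0.0281 to 0.441. The cause was not tested.

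Of 36 named genes called, 12 were also called with the correction, and none changed sign with all libraries. With libraries left out, corrected fits included, ZNF138 ranged from -0.31 to 0.024, ZNF672 from -0.013 to 0.20 and SMARCAD1 from -0.23 to 0.0015. Named genes not past the test with all libraries also changed sign: ZNF26 ranged from -0.061 to 0.15, ZNF81 from -0.15 to 0.082, ZNF268 from -0.023 to 0.081, ZNF461 from -0.24 to 0.084, ZNF598 from -0.15 to 0.17, ZNF706 from -0.13 to 0.11, ZNF318 from -0.018 to 0.12, ZNF326 from -0.050 to 0.10, ZNF680 from -0.20 to 0.11, ZNF430 from -0.17 to 0.090 and ZNF517 from -0.031 to 0.33. With the correction, and with block and correction, values were 0.0094 and 0.012 for ZNF81, -0.0084 and -0.0095 for ZNF268, 0.027 and 0.027 for ZNF461, -0.12 and -0.12 for ZNF598, 0.062 and 0.064 for ZNF706, 0.048 and 0.048 for ZNF326, 0.076 and 0.076 for ZNF680, and 0.061 and 0.063 for ZNF430. Library size alone and upper-quartile scaling gave 0.028 and 0.033 for ZNF81 and 0.037 and 0.041 for ZNF326, and leaving out DMSO 2 and doxycycline 1 gave 0.040 for ZNF326.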
